A study of Drosophila melanogaster and Nicrophorus vespilloides with 16 samples.

Results

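The euchromatic X chromosome of Drosophila melanogaster carried 3187 H3K4me3 peak summits in 4 ChIP-seq libraries, and these formed 1208 regions. A summit is the single base at which a called peak is highest. The regions comprise every fly summit on X up to 22.6 Mb (Release 6 coordinates), with summits of all 4 libraries joined when at most 250 bp apart. They make up 1208 of 7035 regions in the whole series, of which 7031 lie in the fly genome and 4 in the genome of a beetle. The fly libraries were made from whole third-instar larvae of the Oregon-R strain, with 30 pooled larvae per biological replicate, and no transgene, mutation or treatment is given in the labels. The labels do not give the sex of the larvae. Adult brains of the beetle Nicrophorus vespilloides and the input libraries of both insects belong to the same series and enter no comparison here. The work was set up to adapt a filter-based ChIP protocol to insect tissue.

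Trimethylation of lysine 4 of histone H3 is placed by the COMPASS family of methyltransferases on the nucleosomes that follow the starts of active genes. In Drosophila females carry a pair of X chromosomes and males carry an unpaired X together with a Y. In males the MSL complex, built around the proteins encoded by msl genes and mof and the noncoding RNAs roX1 and roX2, acetylates histone H4 along X and raises its transcription. Genes on X range from widely used genes of protein synthesis and respiration to genes used in few tissues, such as those of eggshell, yolk and cuticle proteins and chemoreceptors. In whole larvae, a mark carried by fewer cells and a weaker mark in each cell cannot be told apart. With the sex of the larvae unstated, fewer copies of X per cell cannot be told apart from them either.

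The X summits numbered 572, 808, 889 and 918 in replicates 1 to 4, out of 3518, 4969, 5236 and 5313 summits in each whole library. Replicate 1 held the fewest in both counts. Read depth is not known for any library. No summit had the same position and score in any pair of libraries. The nearest summits to the limit at 22.6 Mb were at 22541041 on the inside (score 3.97, replicate 2) and at 23013016 on the outside (score 6.19, replicate 2), and 24 X summits lay beyond it.

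Summits on X scored lower than summits on the large autosomal arms in all 4 libraries. The authors' score is a −log10 p-value or q-value for each peak, which depends on sequencing depth, so each summit was given its percentile among the summits of its own library on X, 2L, 2R, 3L and 3R. The median percentile of X summits was 45.7, 35.6, 39.6 and 38.2 in replicates 1 to 4, and that of the autosomal summits was 50.7, 53.2, 52.3 and 53.5. The X and autosomal values did not overlap, and X had the lowest median of the 5 arms in 4 of 4 replicates. The X mean was 39.8 ± 4.26 (SD, n = 4), against 52.3 ± 1.65 on 2L, 54.6 ± 2.31 on 2R, 50.9 ± 1.95 on 3L and 52.1 ± 1.17 on 3R. The difference between X and the pooled autosomal arms was −12.7 ± 5.48 percentile points (SD, n = 4; exact sign-flip permutation test over replicates, two-sided, p = 0.13). This is the smallest p that 4 replicates allow, so no comparison of X with the autosomes could pass a threshold of 0.05. It is also the adjusted p over the 7 planned comparisons.

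**Figure D1:**
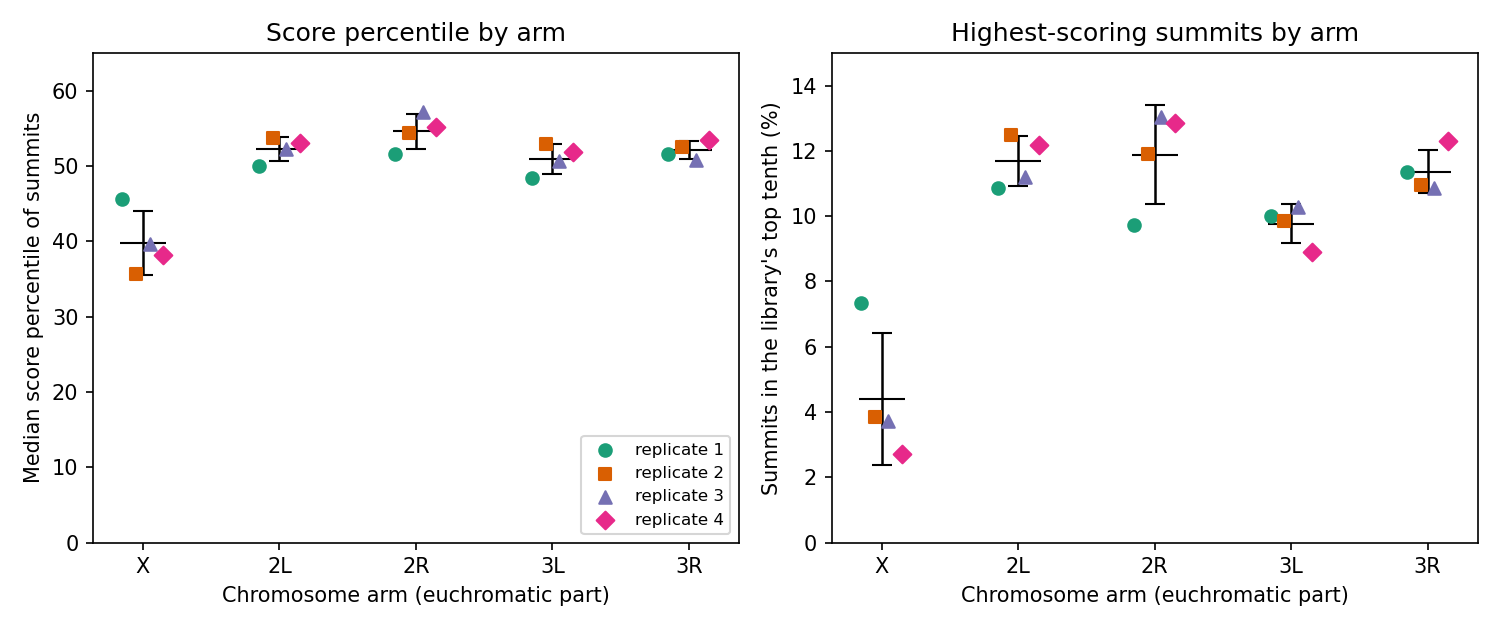
Median score percentile of summits (left) and the percentage of summits in the top 10% of their library (right) for the euchromatic part of each chromosome arm. Each point is a replicate, and horizontal bars with whiskers show the mean and SD of 4 replicates. On the left, the X points lie between 35.6 and 45.7, below every autosomal point.

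X had fewer summits among the highest scores and more among the lowest. Of X summits, 7.34%, 3.84%, 3.71% and 2.72% lay in the top 10% of their library in replicates 1 to 4. The mean was 4.40% ± 2.02 on X and 11.2% ± 0.449 on the autosomes (SD, n = 4; exact sign-flip permutation p = 0.13). In the bottom 10% the X share was 12.6% ± 1.57 and the autosomal share 9.44% ± 0.323, again with X on the same side in 4 of 4 replicates. The highest X score was 17.3, 24.3, 38.6 and 62.5 in replicates 1 to 4, and in each replicate this was the lowest maximum of the 5 arms. The median X score was 5.70, 7.28, 13.1 and 20.1, and the ratio to the autosomal median was 0.941, 0.797, 0.832 and 0.768. Replicate 1, the shortest list, had the ratio nearest to 1.

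The lower X percentiles were also present among summits of the same kind. Among regions found in all 4 replicates, the median X percentile was 51.5 ± 4.01 and the autosomal one 63.8 ± 6.50, a difference of −12.3 ± 6.44 with X lower in 4 of 4 replicates (exact sign-flip permutation p = 0.13). Among regions found in 3 replicates the difference was −12.8 ± 2.54, and in regions found in 2 replicates it was −6.88 ± 4.77. In regions found in 1 replicate, where scores were low throughout, the X median was 11.6 ± 4.50 and the autosomal median 12.5 ± 6.35, and X was lower in 2 of 4 replicates. Summits near 1, 2 and 3 or more coding genes gave differences of −10.8 ± 1.62, −13.1 ± 6.87 and −13.1 ± 5.32. Summits with no coding gene end within 1 kb, of which X had 13 to 58 per replicate, gave 1.9 ± 8.2 with X lower in 3 of 4 replicates.

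Genes of the same function showed the same order. Cytoplasmic and mitochondrial ribosomal proteins, the respiratory chain, translation factors and the proteasome have 51 genes on euchromatic X and 278 on the autosomal arms. Of the members with a summit (41 to 48 of the 51 X genes and 219 to 233 of the 278 others), the strongest summit within 1 kb had a median percentile of 66.5, 54.5, 64.0 and 63.3 on X in replicates 1 to 4. On the autosomes the medians were 67.6, 77.1, 83.2 and 80.8. The mean difference was −15.1 ± 9.56 (SD, n = 4; exact sign-flip permutation p = 0.13), small in replicate 1 and between −22.6 and −17.4 in the others. Over all members, with a missing summit as 0, the difference was −14.3 ± 5.36, again with X lower in 4 of 4 replicates. For the cytoplasmic ribosomal proteins alone the difference was −10.4 ± 5.97 and for the mitochondrial ones −9.77 ± 9.60, with X lower in 4 of 4 replicates. For the respiratory chain, the translation factors and the proteasome X was lower in 3 of 4 replicates each.

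Fewer summits lay on X per Mb than on the autosomes, and slightly more per gene. The density was 25.3, 35.8, 39.3 and 40.6 summits per Mb on X in replicates 1 to 4, and 31.0, 43.2, 45.1 and 45.3 on the autosomal arms. The X to autosome ratio was 0.816, 0.827, 0.873 and 0.896, a mean of 0.853 ± 0.0378 (SD, n = 4; exact sign-flip permutation p = 0.13). Against whole autosomal arms with their heterochromatin the mean ratio was 0.979 ± 0.0402 (exact sign-flip permutation p = 0.375), and the replicates did not all lie on the same side. Per protein-coding gene the ratio was above 1 in 4 of 4 replicates, with a mean of 1.10 ± 0.0488. With the same number of summits taken from each library, the highest-scoring ones, this ratio was 0.948 ± 0.0845.

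Coding genes with a summit at most 1 kb from an end in 3 or more of the 4 replicates are called marked here. On X 986 of 2174 coding genes were marked, which is 45.4%, against 43.5% of 11504 autosomal genes and 43.8% of all coding genes on the 5 arms. The X share lies near that background. A summit was present in 4 replicates at 726 X genes, in 3 at 260, in 2 at 97, in 1 at 72 and in none at 1019. The share of X genes with a summit was 36.3%, 44.7%, 48.9% and 51.8% in replicates 1 to 4, above the autosomal share by 0.453, 1.23, 2.87 and 3.92 percentage points (exact sign-flip permutation p = 0.13). That order turned over with equal numbers of summits per library (−2.38 ± 2.11 points) and with a window of 250 bp (−0.515 ± 0.749 points). With the stricter demand that the summit lie inside the gene, 757 X genes (34.8%) passed in at least 3 replicates, against 31.9% of autosomal genes and 32.4% on the 5 arms.

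The share of marked genes was lower the farther away the nearest neighbour lay. A summit in a neighbour less than 1 kb away can itself mark a gene, so the same is given for summits inside genes. Of 1109 X genes whose nearest other coding gene end was at most 250 bp away, 711 (64.1%) were marked. The share was 54.8% over 250 and up to 500 bp, 26.7% up to 1000 bp and 12.1% up to 2000 bp. Only 8 of 349 X genes (2.29%) with no other coding gene end within 2 kb were marked, against 3.54% of such genes on the 5 arms. Counting a summit only when it lay inside the gene gave 50.3% ± 8.77 of genes per replicate in the closest class and 4.23% ± 2.0 in the most isolated class (SD, n = 4).

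Within each of the closer spacing classes, more X genes than autosomal genes held a summit. Inside the gene, the difference was 6.59 ± 2.99 percentage points in the closest class, 9.19 ± 1.43 over 250 and up to 500 bp, 6.22 ± 2.49 up to 1000 bp and 2.82 ± 1.74 up to 2000 bp, with X higher in 4 of 4 replicates each time (exact sign-flip permutation p = 0.13). Among genes over 2 kb from others X was lower in 4 of 4 replicates, by −1.15 ± 0.333 points. Over all classes X genes were longer, with a median of 2509 bp against 2068 bp on the autosomes. Among genes over 2 kb from others X genes were shorter, with 1450 bp against 1756 bp. The effect of length was not tested. These classes were not rerun with equal numbers of summits per library. The X chromosome had 16.1% of its genes in this isolated class and the autosomes 12.0%, while the closest class held 51.0% of X genes and 58.4% of autosomal genes. The 8 isolated marked genes, chosen after their values were seen, were CG14795, z, Myc, Inx2, Hex-A, CG1622, CG8010 and sw. Among them z encodes the chromatin protein Zeste, Inx2 a gap junction protein, Hex-A a hexokinase and sw a dynein intermediate chain. Their mean percentiles ran from 6.81 for Inx2 to 89.4 for CG1622.

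**Figure D2:**
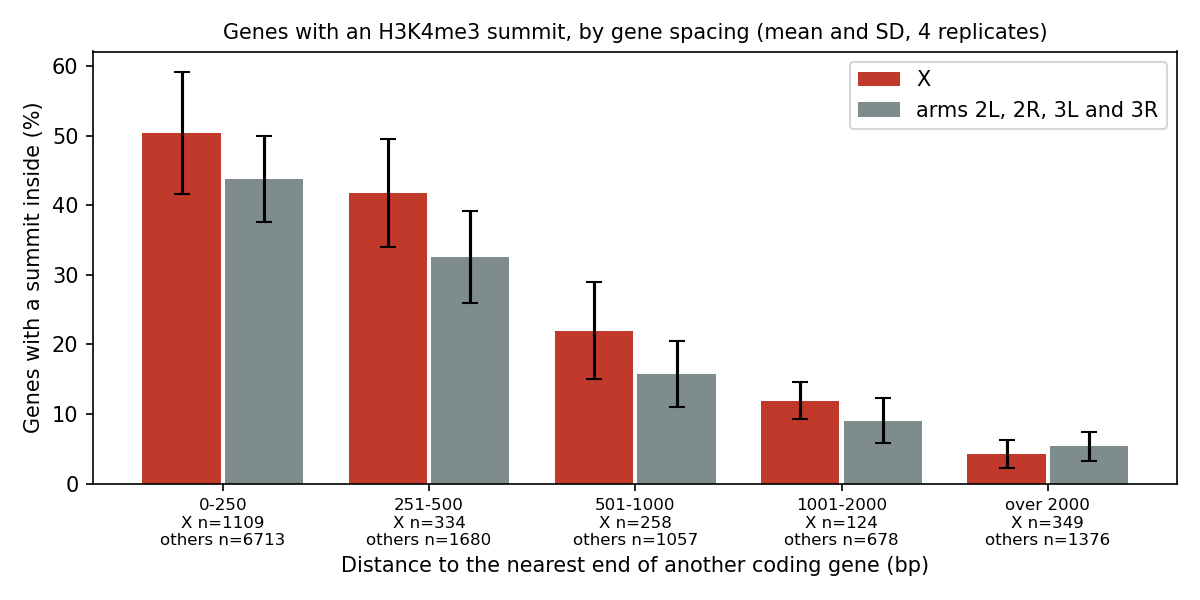
Percentage of protein-coding genes with a summit inside the gene (bars, mean of 4 replicates; whiskers, SD) by the distance to the nearest end of another coding gene, on X and on the pooled autosomal arms. The X bars drop from 50.3% in the closest class to 4.23% in the most isolated class and are higher than the autosomal bars in the 4 closer classes.

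The X summits lay inside the edges of coding genes at a narrow distance. Of X summits, 97.7%, 96.5%, 96.1% and 93.7% were within 1 kb of a coding gene end in replicates 1 to 4, and 94.1% ± 0.255 lay inside the gene of the nearest end (SD, n = 4). Between 150 and 250 bp inside that end lay 40.9%, 45.8%, 42.2% and 43.8% of X summits. On the autosomes this narrow band held 48.2% ± 3.65, against an X mean of 43.2% ± 2.11, and was higher in 4 of 4 replicates (difference −5.06 ± 2.25 points, exact sign-flip permutation p = 0.13). The band lies at the peak of these same distances, so this p-value is descriptive only. The libraries differed just beyond it. The 50 bp bin that starts 250 bp inside the gene held 5.24%, 4.33%, 19.0% and 17.1% of X summits in replicates 1 to 4. On the autosomes it held 4.98%, 3.80%, 17.4% and 16.3%. The median distance to the nearest end was 225, 205, 248 and 239 bp on X, which is 14, 6.5, 18 and 10 bp farther than on the autosomes. The gene table used here has no strand, so the end nearest to a summit could not be named a start or a 3' end.

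**Figure D3:**
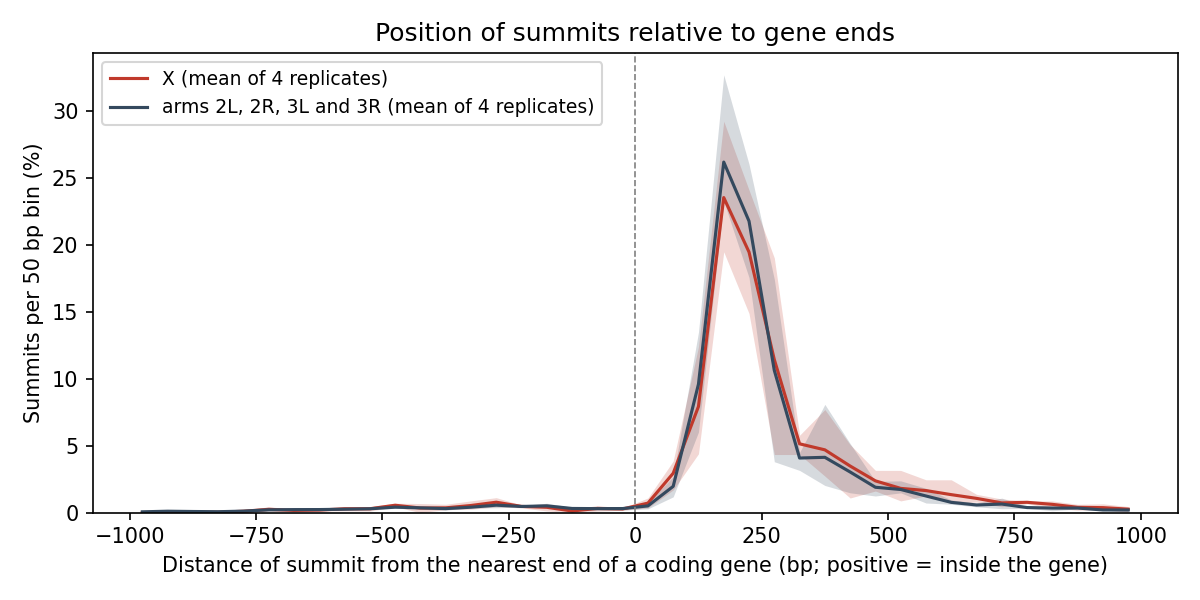
Distance of summits from the nearest end of a coding gene in 50 bp bins; positive values lie inside the gene. Lines show the mean of 4 replicates as the percentage of all X or all autosomal summits, and bands show the lowest and highest replicate. Both curves have their peak inside the gene near the range from 150 to 250 bp, which held 43.2% of X summits and 48.2% of autosomal summits on average.

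Most X summits had a counterpart in another replicate, while the rank order of their scores was only weakly shared. Of the 1208 X regions, 377 were found in 4 replicates, 315 in 3, 206 in 2 and 310 in 1. Thus 692 regions (57.3%) were found in at least 3 replicates, against 61.7% of the 5538 autosomal regions and 60.9% on the 5 arms, and 31.2% were found in all 4, against 36.1% on the autosomes and 35.2% on the 5 arms. The summits of a replicate lay within 250 bp of another replicate's summit in 91.8%, 91.7%, 91.9% and 86.4% of cases on X, and replicate 4 was low. The X share was below the autosomal one in 4 of 4 replicates, by −1.09 ± 0.707 points (exact sign-flip permutation p = 0.13). This difference depended on the distance that counts as shared, with −3.33 ± 0.781 points at 100 bp and −0.160 ± 0.858 at 500 bp, and it was −4.29 ± 1.91 with equal numbers of summits. In regions found in all 4 replicates, the strongest summits of the replicates spanned a median of 114 bp on X and 106 bp on the autosomes. For 6 pairs of replicates, the rank correlation of scores over shared X regions (Spearman's rho) ran from 0.205 to 0.506, with a mean of 0.312, and on the autosomes the mean was 0.348. These are correlations across regions of the same libraries and carry no p-value.

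The strongest X regions lay close to the ends of neighbouring genes. Among regions found in all 4 replicates, the one with the highest mean percentile was at X 15746833 to 15746856, inside CCT6, a subunit of the cytosolic chaperonin, and within 1 kb of CG8944. Its percentiles were 87.8, 93.7, 93.4 and 98.0 in replicates 1 to 4, a mean of 93.3 ± 4.17 (SD, n = 4), with scores of 9.69, 17.2, 29.9 and 58.4. The next was at X 15795798 to 15795963, inside sordd1 and near sordd2, with percentiles of 83.1, 99.1, 91.9 and 98.8. A region at X 6225701 to 6225743, inside dtn and near sqh, the regulatory light chain of nonmuscle myosin II, stood at 86.6, 97.3, 92.8 and 96.2. All 3 regions were lowest in replicate 1.

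The fourth region, at X 7737561 to 7737583 inside Tom40, the channel of the mitochondrial import complex, and near the small GTPase gene Rab39, had percentiles of 95, 99.0, 95.9 and 76.4 and was lowest in replicate 4. The region at X 13155176 to 13155235 lay in CG4332 and near CG4318, with a mean of 87.2 ± 6.23. In wapl, whose product releases cohesin from chromosomes, a region at X 2158822 to 2158922 had a mean of 85.5 ± 8.18, and it also lay near the cytochrome P450 gene Cyp4d1. The region in eIF2alpha, a subunit of the factor that brings the initiator tRNA to the ribosome, was at X 16446777 to 16446807 with percentiles of 84.1, 67.3, 93.5 and 97.0. The last 3 were in Tmf near CG14435 (85.1 ± 12.0), in CG12121 near Ir8a (85.0 ± 10.0) and in CG15456 near cactin and CG11710 (84.8 ± 11.6). Each of these 10 regions lay inside a coding gene and within 1 kb of an end of at least 2. This was common on X as a whole. Of the regions in at least 3 replicates, 65.8% had 2 coding genes within 1 kb and 14.7% had 3. Of all X summits, 94.1% lay inside the gene of the nearest end.

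**Figure D4:**
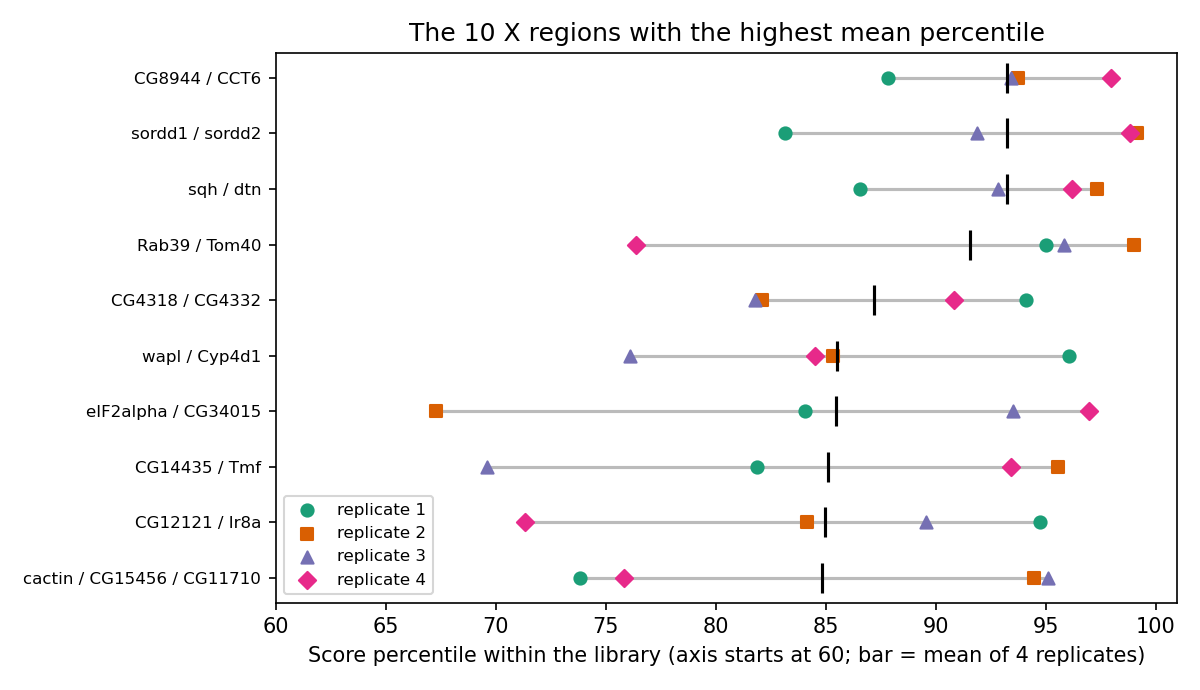
Score percentile within each library for the 10 X regions with the highest mean percentile, named by the coding genes with an end within 1 kb. Points are replicates, the grey line spans their range and the black bar is the mean; the axis starts at 60. The values spread from 67.3 to 99.1, and the replicate with the lowest value differs between regions.

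Most shared X regions lay near the ends of a pair of genes. Of the 692 regions in at least 3 replicates, 455 (65.8%) had ends of 2 coding genes within 1 kb, 113 had 1, 102 had 3, 8 had 4 or more and 14 had none. A gene could therefore be marked through a region inside its neighbour, and summits inside the gene are given where that changed the picture. The lists were read against the 43.8% of all coding genes that were marked. Of the 2174 X coding genes, 729 were marked with equal numbers of summits per library and 726 with all 4 replicates required. List counts under these 2 settings are to be read against those numbers.

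Genes of protein synthesis and respiration on X were marked, except for 1 translation factor gene. All 15 X genes of cytoplasmic ribosomal proteins were marked, and all 15 held a summit inside the gene in at least 3 replicates. The member with the highest mean percentile was RpS19a, at 63.4, 68.4, 80.8 and 85.2 in replicates 1 to 4 (74.5 ± 10.3, SD, n = 4). RpL7A and RpS5a had no summit in replicate 1. RpL35, which also enters through the spread of its scores, had a region at X 5672894 to 5673052 with percentiles of 13.3, 18, 79.0 and 85.5, low in replicates 1 and 2 and high in 3 and 4. By the strongest summit within 1 kb of its ends, as for the other genes, RpL35 had 83.6, 22.4, 79.0 and 85.5. It was then low in replicate 2 only. RpS14a and RpS14b, chosen after their values were seen, are near-identical neighbours between which reads could be split, and they had 62.1 ± 20.7 and 68.6 ± 19.8.

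All 11 mitochondrial ribosomal protein genes on X were marked and held a summit inside the gene. Their mean percentiles ran from 27.8 for mRpL14 to 83.4 for mRpL16, and 3 of them, mRpL14, mRpL33 and mRpL30, lacked a summit in 1 replicate. The others were mRpL49 (72.3), mRpL38 (63.0), mRpS25 (56.1), mRpL3 (57.7), mRpS30 (80.7), mRpL22 (40.9) and mRpS14 (76.6). The strongest summit of mRpL16 was the same as that of its neighbour trr in each replicate, as its percentiles of 91.2, 92.5, 78.9 and 71.2 were equal to those of trr.

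The 12 X genes of the respiratory chain and ATP synthase were all marked, 11 of them by a summit inside the gene. Complex I subunits led, with ND-ASHI at 89.7, 73.4, 90.4 and 63.8 (79.3 ± 13), ND-MNLL at a mean of 76.3, ND-B16.6 at 73.9 and ND-75 at 70.6. ND-18, ND-B18, ND-B14.5A, ND-20 and ND-24 had means between 43.5 and 67.8. ATPsyndelta, a subunit of ATP synthase, had 58.9, UQCR-14 of complex III had 43.4, and COX6B of complex IV, with a summit inside the gene in 2 replicates, had the lowest mean, 32.4.

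Of 6 X genes of proteasome subunits 4 were marked, Rpt4 (73.9 ± 16.5), Prosalpha4 (66.1 ± 18), Rpt3 (59.8 ± 22.9) and Rpt6 (56.1 ± 38, with none in replicate 1). Rpn13R and Prosbeta2R1, both paralogs of subunit genes, had no summit. Of 7 translation factor genes 6 were marked, led by eIF2alpha (85.5 ± 13.3), followed by eIF2Bepsilon (61.2), eIF5 (55.6), eIF3g1 (52.7), eIF2Bbeta (45.6) and eIF4H1 (34.3), and eIF4E7 had none. Only 4 of the 7 held a summit inside the gene in at least 3 replicates. Of 10 genes of other widely used enzymes, actin and chaperones 6 were marked, and 2 with equal numbers of summits or with all 4 replicates required. The 6 were Polr2A, the largest subunit of RNA polymerase II (47.7 ± 25.8), the mitochondrial ADP/ATP carriers sesB and Ant2, which overlap and shared 41.7 ± 36.2, Pgd of the pentose phosphate pathway (39.1 ± 7.0), Hsp60A (15.3 ± 19.6) and ras (15 ± 11). Act5C was reached near an end in 2 replicates and inside the gene in 3, and Zw, the glucose-6-phosphate dehydrogenase gene, in 1 replicate, while Gs2 had none. Hsc70-3, the chaperone of the endoplasmic reticulum, had no summit within 1 kb of its ends but a region in all 4 replicates at X 11805901 to 11806006, 1111 bp inside the gene.

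**Figure D5:**
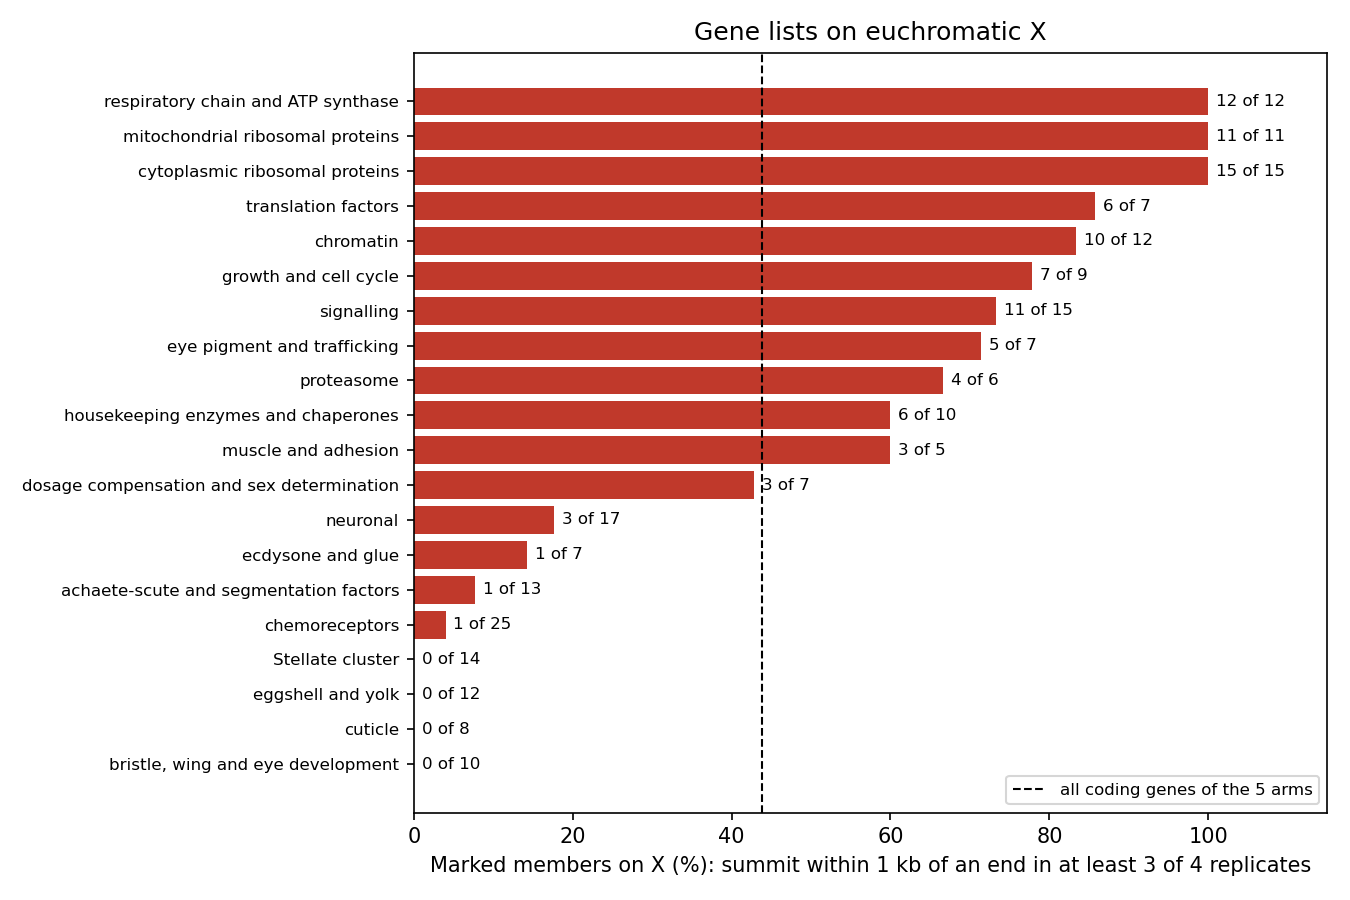
Percentage of the members on euchromatic X that were marked, for each of 20 gene lists, with the number of members. The dashed line is the 43.8% of all coding genes on the 5 arms; the lists of ribosomal proteins and the respiratory chain reach 100% and 4 lists have no marked member.

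Chromatin genes on X were mostly marked, with 10 of 12. The methyltransferase gene trr had the highest percentiles, 91.2, 92.5, 78.9 and 71.2 in replicates 1 to 4 (83.4 ± 10.2). wds and Cfp1, whose products belong to COMPASS complexes, had 62.2 ± 15.9 and 49.8 ± 11.1. Hira, a histone chaperone, had 70.1 ± 18.7, the heterochromatin protein gene HP1b 65.5 ± 10.0, the Brahma complex gene Bap60 59.4 ± 20.0 and the insulator gene dwg 58.8 ± 39.4 with none near an end in replicate 1. The ecdysone receptor partner usp had percentiles of 41.1, 13.2, 91.6 and 90.6, which were high in replicates 3 and 4 only, and Top1 had 30.8 ± 31.6. The Polycomb repressive complex 1 genes ph-d and ph-p lie side by side as near-identical copies and were not marked. However, ph-p held a region in all 4 replicates at X 2136579 to 2136636, over 1 kb from its ends, with percentiles of 43.0, 12.9, 37.9 and 12.2, and ph-d had a summit in 1 replicate.

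Among the genes that count X chromosomes and adjust its transcription 3 of 7 were marked, a share of 42.9% that lies near the 43.8% of all coding genes. The acetyltransferase gene mof had percentiles of 30.2, 57.1, 76.8 and 55.7 (54.9 ± 19.1). The gene snf, whose product is a spliceosomal protein that also acts in Sxl splicing, had 83.7, 75.5, 89.5 and 40.3 (72.3 ± 22.1). Sxl, the switch gene of female development, had no summit in replicate 1 and 16.1, 7.3 and 75.8 in replicates 2 to 4, so its level was high in replicate 4 alone. The X-linked signal genes sc, sisA, upd1 and run, which act in the early embryo, had no summit. Around the noncoding gene roX1 (X 3857230 to 3862697) the nearest summit was 18227 to 18347 bp away in all 4 replicates. At roX2 (X 11579065 to 11580432) a summit lay inside the gene in replicates 2 and 4 (scores 3.44 and 14.7), and the nearest was 2031 bp away in replicate 1 and 598 bp in replicate 3.

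Growth and cell cycle genes on X were marked in 7 of 9 cases. Mcm6, a subunit of the replicative helicase, had 79.3 ± 13, equal in each replicate to its neighbour ND-ASHI. The kinesin genes Klp10A and Klp3A had 73.0 ± 20.8 and 65.4 ± 30.5, and mus101, fzr and CycD had 36.6 ± 16.3, 34.2 ± 29.5 and 31.0 ± 22.4. Klp3A held a summit inside the gene in 2 replicates only, and 6 of the 9 genes did so in at least 3. Myc, a growth regulator with no coding neighbour within 2 kb, had no summit in replicate 1 and low percentiles of 27.9, 15.6 and 15 in the others. Mcm3 had a summit in 1 replicate and feo, a spindle midzone gene, had none. With equal numbers of summits per library 4 of the 9 were marked, beside 729 of all 2174 X coding genes.

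Signalling genes were marked in 11 of 15 cases, 8 of 15 by a summit inside the gene. The kinase gene fu of the Hedgehog pathway had the highest mean, with 88.7, 70.3, 58.1 and 68.8 in replicates 1 to 4 (71.5 ± 12.7). The cytokine genes upd1, upd2 and upd3 had no summit, while hop and dome, which encode the kinase and the receptor of the same JAK/STAT pathway, were reached near an end in 3 replicates each, but held a summit inside the gene in 2 and 1. The percentile of dome in replicate 3 was 0.721. With equal numbers of summits 7 of the 15 were marked, and with all 4 replicates required 6 were. These pathway genes and arm, chosen after their values were seen, show the range of the list. For arm, which encodes beta-catenin, the region at X 1899672 to 1900457 was the widest on X at 786 bp, with percentiles of 11.2, 34.4, 3.47 and 31.5.

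Of 7 eye colour genes 5 were marked, and these 5 encode proteins of vesicle traffic to lysosomes and pigment granules. The adaptor complex AP-3 gene rb had 74.6, 95.1, 94.0 and 80.0 (85.9 ± 10.2), and dor, a subunit of the HOPS tethering complex, had 94.2, 74.1, 87.1 and 77.8 (83.3 ± 9.1). car, another HOPS gene, had 36.4 ± 11, and g and cm of AP-3 had 29.8 ± 24.0 and 27.2 ± 13.3. The pigment genes themselves, w, an ABC transporter gene, and v, the tryptophan oxygenase gene, had no summit. Inside the gene, cm held a summit in 2 replicates only, and with equal numbers of summits per library 3 of the 7 were marked.

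Transcription factors and structural genes of discs, bristles and segments had almost no summits. Of 10 genes of bristle, wing and eye development none was marked. No summit was present near y, rst, bi, ct, lz, B-H1 and B-H2, and sd had 1 in replicate 4. The actin-bundling genes f and sn had none near an annotated end but held summits inside the gene in 4 and 3 replicates. In the achaete-scute and segmentation list 1 of 13 was marked, exd, a partner of Hox proteins, with 52.1, 35.5, 57.7 and 49.9 in replicates 1 to 4 (48.8 ± 9.5). The proneural genes ac, sc, l(1)sc and ase and the factors vnd, gt, oc, btd, Sp1, disco, disco-r and run had no summit in any replicate. Of all coding genes on the 5 arms, 50% had none.

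Few genes used in neurons and sense organs on X held a summit of their own. In the neuronal list 3 of 17 were marked, and 1 of 17 held a summit inside the gene in at least 3 replicates. The highest mean, 48.3 ± 34.7, was that of norpA, a phospholipase of phototransduction, but norpA held no summit inside the gene and its values were those of its neighbour mRpL33. Appl, the fly amyloid precursor gene, was marked without a summit inside it, and NetA, a Netrin guidance gene, had no summit. Replicate 1 had no summit near any of the 17 genes. With replicate 1 left out, a summit in 2 of the 3 other replicates was enough, and 5 of 17 passed. Among these, elav and Nrg had a summit in 2 replicates each and passed only through this lower demand. Of 5 muscle and adhesion genes Actn (59.1 ± 38.6, overlapping usp), mys (39.7 ± 40.7) and if (40.9 ± 15.5) were marked. The values of if are those of its neighbour mRpL22, and if held a summit inside the gene in 1 replicate. The troponin genes up and wupA had no summit. Of 25 chemoreceptor genes 1 was marked, Ir8a (85.0 ± 10.0), with its summits inside CG12121 and none inside Ir8a, and Gr10a had none.

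Genes of secreted structural products had no summits of their own in these larvae. All 12 genes of the eggshell and yolk list (fs(1)N, fs(1)Ya, fs(1)M3, dec, Cp7Fa, Cp7Fb, Cp7Fc, Cp36, Cp38, Yp1, Yp2 and Yp3) had none. Of this list, fs(1)Ya encodes a nuclear protein and not a secreted one. All 8 cuticle genes (Cpr5C, Cpr11A, Cpr11B, Cpr12A, TwdlX, TwdlY, TwdlZ and Twdlalpha) also had none. The glue genes Sgs4, ng1, ng2, ng3, ng4 and Pig1 had none either. br, an early gene of the ecdysone response, was marked at 94.2, 74.1, 87.1 and 77.8, but these are the values of its neighbour dor, and no summit lay inside br. All 14 Stellate genes had none, Ste12DOR being the first of them by name. These are near-identical copies, so the absence of a summit there is uncertain.

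Windows of X with more coding genes held more regions. The number of regions found in at least 3 replicates ran from 13 to 60 in the 22 full windows of 1 Mb, with a median of 28. The densest window was X 15000001 to 16000000, with 60 regions, 141 coding genes and 84 of them marked. The sparsest was X 3000001 to 4000000, with 13 regions, 55 coding genes and 21 marked. Across windows Spearman's rho of the number of regions and the number of coding genes was 0.934, a description over windows of the same 4 libraries. The percentage of genes marked ran from 21.6% to 62.3%. With the summits of the 4 libraries pooled, the median score percentile was under 50 in all 23 windows, from 27.2 to 49.0. The last window was cut at 22.6 Mb. Single libraries exceeded 50 in some windows. At X 19000001 to 20000000 the medians were 61.7, 45.2, 48.2 and 54.1 in replicates 1 to 4. At X 14000001 to 15000000 they were 39.1, 64.4, 53.9 and 34.6. Autosomal windows were not run.

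Long stretches of X held no shared region. The 691 gaps between neighbouring regions found in at least 3 replicates had a median of 7040 bp. The 72 gaps over 100 kb together covered 61.0% of euchromatic X. The longest, 815 kb from X 21629967 to 22444937 between DIP1 and CG14621, held 21 coding genes and no summit region in any replicate. Whether reads can be placed uniquely in that stretch was not examined. The second, 503 kb from X 20524821 to 21028071 between Tak1 and CG1532, held 22 coding genes and none either. It contains run, a segmentation gene, and shakB, a gap junction gene. The third, 434 kb from X 2738543 to 3172862 between crm and CG18508, held 24 coding genes, among them w, rst and N, and 1 region found in fewer than 3 replicates. N, the Notch receptor gene, was marked through a region beyond this stretch and held no summit inside the gene.

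Regions far from annotated ends were few and mostly found in 1 replicate. Of 86 X regions over 1 kb from every coding gene end, 62 were found in 1 replicate, 14 in at least 3 and 3 in all 4. All 14 lay within a coding gene. The strongest of the 3 was at X 19613899 to 19613967, where Shawn and Tyler overlap, with percentiles of 66.0, 64.4, 37.5 and 66.0, and the others were those in ph-p and Hsc70-3. Most genes that held a region held 1 (709 genes), 12 held 2 and 2 held 3. su(w[a]) and CG1677 held 3 each without a summit near their own ends, and the regions lay near genes that overlap them, among them Cdc45 and Rpp21 for su(w[a]) and CG2059 and Atg5 for CG1677. CG8191, Actn and usp, the last a pair of overlapping genes, held 2.

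Some X regions were strong in some libraries and weak in others. Among regions found in all 4 replicates, the largest spread of percentiles was at X 18499473 to 18499657 in Pgant7 and near Xrcc2, with 84.2, 1.07, 11.7 and 66.7 in replicates 1 to 4. The regions in RpL35 and at Actn and usp (X 2041934 to 2042071) came next among these, with SDs of 38.6 and 38.6 points. After arm, the widest regions were at X 9586078 to 9586607 in Hex-A (530 bp, 3 replicates) and at X 2704720 to 2705162 in eIF2Bbeta (443 bp, 4 replicates).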

How the data were processed

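Per the labels, chromatin fixed in 1% formaldehyde for 10 min was sonicated for 10 min, and 30 µg entered each ChIP. Each of the 4 fly ChIP libraries has its own deposited summit list. MACS2, BWA 0.7.17, cutadapt 1.16, Picard 2.17.11, SAMtools 1.9 and FastQC 0.11.7 are the tools in the submitters' processing notes. The authors deposited each summit with a score that looks like −log10 of a p-value or q-value. Which it is, and the peak calling settings, duplicate handling, genome build and role of the input, is not stated in the sources at hand. The 8 input libraries were not analysed here. The build was taken as Release 6 from the sequence names. Genes came from a RefSeq table (Release 6 plus ISO1 MT) with no strand or sequence, so distances are to either gene end, and promoter motifs were not run. Autosomal euchromatin was 2L to 22000000, 2R from 5400000, 3L to 22900000 and 3R from 4200000. A gene counted only if it lay wholly within these limits. Chaining distance was 250 bp, the gene window 1 kb, and mean percentiles of genes or regions count a missing summit as 0. Medians over housekeeping lists were taken over members with a summit, and also with a missing summit as 0. Read depth is unknown, so no counting interval was computed.

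X was compared with the pooled autosomal arms within each replicate by an exact sign-flip permutation test, two-sided. The 20 gene lists were matched by symbol or symbol stem. roX1 and roX2 are noncoding and lt lies outside X, so these were not counted. The regions and lists were chosen with earlier results of these data known. Named genes followed a rule: the 10 strongest shared regions, all members of lists of at most 13 X genes, otherwise the strongest marked member and the first by name without a summit, the strongest regions far from gene ends, the longest gaps, the densest and sparsest windows, genes with most regions, and the most variable and widest regions. Alternatives took equal numbers of summits, a score minimum of 5, each replicate left out, other windows and chaining distances, other numbers of replicates, isolated genes, summits inside genes, whole arms and no replicate block. The comparison within regions found in all 4 replicates and both comparisons of 5 housekeeping lists were added after seeing the data. Other comparisons were also outside the planned ones. They include the shares in the top and bottom 10% and the band from 150 to 250 bp inside genes. The classes by region sharing, by nearby coding genes and by gene spacing were outside them as well. Steps were tested on simulated summits. Scripts ran under Python 3.11.15 with scipy 1.17.1, pandas 2.3.3, matplotlib 3.10.9 and numpy 2.4.6.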

Additional observations from a re-analysis of the deposited data

Results flagged for a closer look

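Among 86 sets of 4 replicate values checked for a replicate far from the others (shares of gene lists, which take few values, were not checked), 3 had such a replicate, and chance gives about 1 in 20. The share of X summits near a summit of another replicate was 86.4% in replicate 4, against 91.7% to 91.9% in the others. The region where Shawn and Tyler overlap had a percentile of 37.5 in replicate 3, against 64.4 to 66.0 in the others. COX6B had a percentile of 14.6 in replicate 1, against 36.9 to 40.1 in the others.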

How the results depend on the processing

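On average over replicates, the lower score percentile on X and the lower density per Mb kept their direction under every alternative run. So did the distance to gene ends and the lower share of summits shared between replicates, although that share's difference ranged from −4.29 to −0.160 points. In some settings the replicates were split, as for density against whole arms (0.979 ± 0.0402) and for shared summits at 500 bp (−0.160 ± 0.858). With equal numbers of summits per library, summits per coding gene turned from a ratio of 1.10 to 0.948 and the share of genes with a summit from 2.12 points above the autosomes to −2.38. That share also turned with a window of 250 bp (−0.515) and among isolated genes (−1.65), and the share of summits near gene ends turned at 250 bp (−5.85). The causes were not tested. Without the replicate block, with X and autosomal values of a library treated as independent, the score difference of −12.7 points had an exact permutation p = 0.0286, and no call changed in the 4 other differences for which this was run. The ratios of density and of summits per gene were not run without the block. The number of X regions in at least 3 replicates, 692, was 419 with equal numbers of summits and 377 when all 4 replicates were required, and the number of marked genes, 986, was 359 with a window of 250 bp and 8 among isolated genes. Leaving out each replicate in turn gave 747 to 864 regions and 991 to 1076 marked genes. Both counts then asked for a summit in at least 2 of the 3 left, a lower demand than for 692 and 986. The same runs gave a score difference of −15.2 to −11.0, a density ratio of 0.839 to 0.865 and 1.08 to 1.12 per gene, 1.52 to 2.67 points for genes, 0.348 to 0.575 for gene ends, 10.2 to 14 bp, and −3.26 to −1.01 points for shared summits. With a window of 250 bp 359 of all 2174 X coding genes were marked, so list counts at this window are not to be read against 43.8%. The marked members were then 7 of 11 for mitochondrial and 6 of 15 for cytoplasmic ribosomal proteins, 5 of 12 for chromatin, 4 of 15 for signalling, 3 of 12 for the respiratory chain, 2 of 7 for translation factors, 2 of 10 for housekeeping enzymes, 1 of 7 for eye pigment and 1 of 6 for the proteasome. They were 0 in each other list, among them growth, dosage compensation, neuronal, and muscle and adhesion genes. Unknown read depth limits what a missing summit shows.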
